A study of Homo sapiens with 8 samples.

Results

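The miRNAs described here were the mature products of the human miR-642a and miR-642b hairpins, miR-642a-3p, miR-642a-5p, miR-642b-3p and miR-642b-5p, which made up 4 of the 1887 human miRNAs on the array. The array design lists them as hsa-miR-642a-3p and so on, and the species prefix is left out below. They were chosen by their names, and their locus was picked for the higher signal of its 3p arms in gefitinib-treated cells than in DMSO-treated cells. The levels under gefitinib alone are therefore given as a description with no test. RNA came from PC-3 cells, an established human prostate cancer cell line, collected at 24 h under 4 treatments. These were DMSO, 60 µM luteolin, 60 µM gefitinib, and 60 µM luteolin together with 60 µM gefitinib. Luteolin is a flavonoid of plants, and gefitinib inhibits the kinase of the epidermal growth factor receptor. Each treatment had 2 miRNA arrays, labelled as biological replicates, of a single cell line at a single dose and time, and no sample taken before treatment was analysed here.

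A miRNA gene is transcribed into a hairpin, and Drosha and Dicer cut this hairpin into a short duplex of its 5p and 3p arms. The arm that is kept in an Argonaute protein guides it to mRNAs, mainly by pairing of its seed, the bases 2 to 8, while the other arm is usually degraded. MIR642A and MIR642B are unusual in that they are transcribed from opposite strands of the same stretch of DNA, and miR-642a-3p is known as a miRNA that accumulates when human adipose stem cells become fat cells. In the RefSeq annotation (GRCh38) both hairpins lie within the gene GIPR, which encodes the receptor of the gut hormone GIP. The table used here holds no exons, so whether they are exonic or intronic is not given.

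The mature sequences from RefSeq are shown because the similarity of the 4 arms sets how far the array can tell them apart. Capitals mark the seed, and each sequence runs 5′ to 3′. miR-642a-3p lies at chr19:45674978-45674999 on the plus strand and miR-642a-5p at chr19:45674943-45674964 on the same strand. miR-642b-3p lies at chr19:45674941-45674962 on the minus strand and miR-642b-5p at chr19:45674978-45674999 on the minus strand.
miR-642a-3p: aGACACAUuuggagagggaacc
miR-642b-3p: aGACACAUuuggagagggaccc
miR-642a-5p: gUCCCUCUccaaaugugucuug
miR-642b-5p: gGUUCCCUcuccaaaugugucu

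The 3p arms had the same seed and were identical at 21 of 22 bases. The only difference was A20C, counted from 1 at the 5′ end with the base of miR-642a-3p first. The 5p arms had different seeds, so the 4 arms held 3 distinct seeds, although the 5p arms shared a run of 19 bases. miR-642b-5p was the exact reverse complement of miR-642a-3p, since both are read from the same 22 positions on opposite strands. Purines made up 68.2% of miR-642a-3p and 63.6% of miR-642b-3p, but 31.8% of each 5p arm.

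The hairpins are shown because their overlap is complete on the shorter side. Capitals mark the mature arms. The miR-642a hairpin lies at chr19:45674928-45675024 on the plus strand and is 97 bases long, and the miR-642b hairpin lies at chr19:45674932-45675008 on the minus strand and is 77 bases long.
MIR642A: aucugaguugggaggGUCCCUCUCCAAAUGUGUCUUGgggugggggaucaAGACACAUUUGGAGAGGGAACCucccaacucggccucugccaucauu
MIR642B: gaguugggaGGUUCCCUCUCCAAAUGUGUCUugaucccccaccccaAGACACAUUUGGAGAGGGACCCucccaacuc

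All 77 bases of the miR-642b hairpin were the reverse complement of part of the miR-642a hairpin. miR-642a-5p shared a run of 20 bases with the reverse complement of miR-642b-3p, so each 5p arm is read opposite the 3p arm of the other hairpin.

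Each array carried 30 spots for each miRNA, and 395 to 481 miRNAs were detected on an array by the scanner software. The signals given are total signal intensities, which have arbitrary units, scaled so that the 75th percentile over the 365 miRNAs detected on all 8 arrays was the same on every array. A test covered 480 miRNAs, those that at least 1 treatment showed on both of its arrays. Before scaling, this percentile lay between 60.5 and 92.7, and the lowest value was that of replicate 2 of luteolin plus gefitinib, whose signal of the human small-RNA control probes was also the lowest, 11891 against 17104 to 20577 on the other 7 arrays. All 8 arrays were on 1 slide, with replicate 1 of every treatment in the first row and replicate 2 in the second. Among 6 epithelial marker miRNAs, miR-200a-3p, miR-200b-3p, miR-429 and miR-205-5p were detected on at least 1 array, 3 of the 6 on all arrays, and miR-200c-3p and miR-141-3p on none. The summed scaled signal of the 6 lay between 219 and 284. Of 5 blood cell markers, 4 were detected on no array and miR-142-3p, which is typical of blood cells, contributed a signal of at most 1.67. None of the 4 muscle markers, the liver marker or the nerve cell marker was detected.

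Only the 3p arms of the locus were detected. miR-642a-3p and miR-642b-3p were detected on 8 of 8 arrays, and 240 of 240 spots of each were well above background over the 8 arrays. The 5p arms were detected on 0 of 8 arrays, with 1 of 240 spots of miR-642a-5p and 1 of 240 spots of miR-642b-5p well above background. The probe signals of miR-642a-5p lay between -0.189 and 0.204 and those of miR-642b-5p between -0.286 and 0.170 before scaling. On these arrays the lowest total signal of any detected miRNA was 0.595 to 0.683, so the 5p arms are given as not detected and without a fold change. The 3p arms passed the filter for the test, that is 2 of the 4 members.

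Gefitinib-treated cells had the highest signal of miR-642a-3p and DMSO-treated cells the lowest. The scaled signal of miR-642a-3p was 142 and 129 in DMSO-treated cells, 204 and 140 in luteolin-treated cells, 419 and 411 in gefitinib-treated cells, and 273 and 295 in cells given both drugs. The means were 136 ± 8.89, 172 ± 45.2, 415 ± 5.32 and 284 ± 15.0, respectively (SD, n = 2). In the order gefitinib, both drugs, luteolin and DMSO, neighbouring groups did not overlap except luteolin and DMSO, whose arrays overlapped. Such gaps were common. Of all miRNAs tested, 32.3% had both drugs below gefitinib without overlap, and 16.2% had both drugs above luteolin without overlap. The luteolin arrays differed most from each other, and replicate 2 of luteolin lay between the DMSO arrays. Since RNA was taken from whole cultures, a change in the number of cells that hold a miRNA and a change in the amount per cell cannot be told apart.

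The signal of miR-642b-3p followed the same order. It was 20.7 and 17.3 in DMSO-treated cells, 23.0 and 16.3 in luteolin-treated cells, 40.1 and 38.7 in gefitinib-treated cells, and 28.9 and 26.0 in cells given both drugs. The means were 19.0 ± 2.43, 19.7 ± 4.80, 39.4 ± 0.949 and 27.5 ± 2.02 (SD, n = 2). Gefitinib-treated cells again stood above all others and cells given both drugs stood between, while the luteolin arrays spanned both DMSO arrays. The error that the scanner software assigned to a total signal was 5.78% to 5.80% for miR-642a-3p and 7.19% to 8.28% for miR-642b-3p, which is less than the difference between the luteolin replicates.

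**Figure D1:**
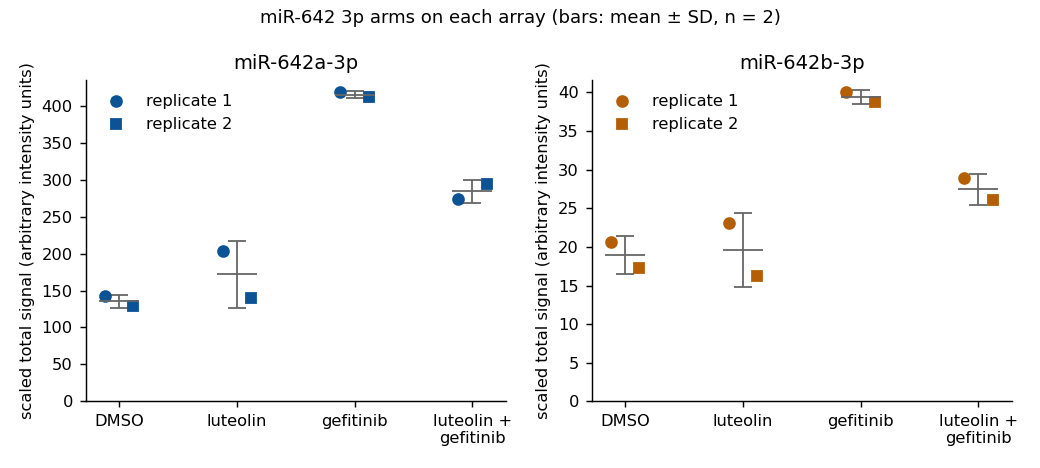
Scaled total signal (y axis, arbitrary intensity units) of miR-642a-3p (left) and miR-642b-3p (right) on each of the 8 arrays by treatment (x axis), with circles for replicate 1, squares for replicate 2 and bars for the mean and SD of 2 arrays. The gefitinib arrays lie highest in both panels, at 411 to 419 and 38.7 to 40.1, and the arrays of both drugs lie between them and the DMSO and luteolin arrays.

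On the log2 scale, miR-642a-3p was higher by 1.62 in gefitinib-treated than in DMSO-treated cells, which is 3.06-fold, and miR-642b-3p was higher by 1.06, or 2.09-fold. These are the values that the locus was picked for. For comparison, 7.5% of the 480 miRNAs tested were called higher and 4.58% lower in gefitinib-treated than in DMSO-treated cells, at a limma p adjusted over all of them of under 0.05, and 21.5% had both gefitinib arrays above both DMSO arrays. Nothing is read from these shares about the miR-642 arms. Within the slide rows, the arrays of replicate 1 differed 2.95-fold and those of replicate 2 differed 3.18-fold for miR-642a-3p. For miR-642b-3p these values were 1.94-fold and 2.25-fold. Before scaling, the gefitinib arrays were 3.65-fold and 4.28-fold higher for miR-642a-3p and 2.39-fold and 3.02-fold higher for miR-642b-3p, so that scaling made these differences smaller.

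The comparisons that share arrays with it are given side by side, without a test. In luteolin-treated cells, miR-642a-3p differed from DMSO-treated cells by 0.32 (log2, SE 0.21), or 1.25-fold, and miR-642b-3p by 0.03 (SE 0.21), or 1.02-fold, and for both arms the luteolin and DMSO arrays overlapped. In this comparison 0.208% of the miRNAs tested were called higher and 1.88% lower. In cells given both drugs, the signal of miR-642a-3p exceeded that of DMSO-treated cells 2.09-fold (log2 1.07) and that of miR-642b-3p 1.45-fold (log2 0.54), and the groups did not overlap for either arm. Limma called 6.04% of the 480 miRNAs higher here and 6.04% lower, and 19.6% had groups that did not overlap with both drugs higher. Gefitinib alone gave a higher signal than gefitinib with luteolin, 1.46-fold for miR-642a-3p and 1.44-fold for miR-642b-3p, and these groups did not overlap for either arm, as for 32.3% of all miRNAs tested in the same direction.

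Luteolin plus gefitinib against luteolin shares no array with gefitinib against DMSO, the comparison that the locus was picked for. It asks whether the 3p arms were also higher when gefitinib was given on top of luteolin. The locus was chosen with earlier results of these data known, so this is not an independent check. Both arms were higher on each array with gefitinib than on each array with luteolin alone, as were 16.2% of all miRNAs tested, but neither passed the test. The difference of miR-642a-3p was 0.75 on the log2 scale (SE 0.21, 95% confidence interval 0.24 to 1.26), or 1.68-fold with an interval of 1.18 to 2.39. Its limma p was 0.0119 and its limma adjusted p over the 480 miRNAs was 0.173. The difference of miR-642b-3p was 0.50 (SE 0.21, 95% confidence interval -0.02 to 1.02), or 1.42-fold with an interval of 0.987 to 2.03, with a limma p of 0.0565 and a limma adjusted p of 0.343. The unadjusted p of miR-642a-3p was above 0.05 in some alternatives, at 0.0520 with only the groups compared, 0.0547 without replicate 2 of luteolin plus gefitinib, 0.0760 without scaling and 0.0885 with quantile normalization (limma), and 0.114 with the test named in the methods. The standard errors draw on the spread of all 8 arrays, including those that the locus was picked on. In this comparison limma called 1.25% of the miRNAs higher and 0.625% lower, or 9 of 480, and 74 had an unadjusted limma p under 0.05.

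The size of this difference depended on the row and on either luteolin array. For miR-642a-3p, the array with both drugs was 1.34-fold above the luteolin array in the first row and 2.10-fold above it in the second. For miR-642b-3p these values were 1.25-fold and 1.60-fold. Before scaling the rows were closer to each other, 1.40-fold and 1.70-fold for miR-642a-3p and 1.31-fold and 1.29-fold for miR-642b-3p. Replicate 1 of luteolin was the higher luteolin array for both arms, and without it the log2 difference of miR-642a-3p was 1.02 with a limma adjusted p of 0.0436. Without replicate 2 of luteolin it was 0.48 with a limma adjusted p of 0.245. When arrays were scaled to the human small-RNA control probes, which were dimmest on replicate 2 of luteolin plus gefitinib, it was 1.06 with a limma adjusted p of 0.0475. For miR-642b-3p the limma adjusted p lay between 0.0856 and 1 over all alternatives. Whether gefitinib's difference was smaller in the presence of luteolin than without it was not tested, since the difference without luteolin was the one that the locus was picked for.

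**Figure D2:**
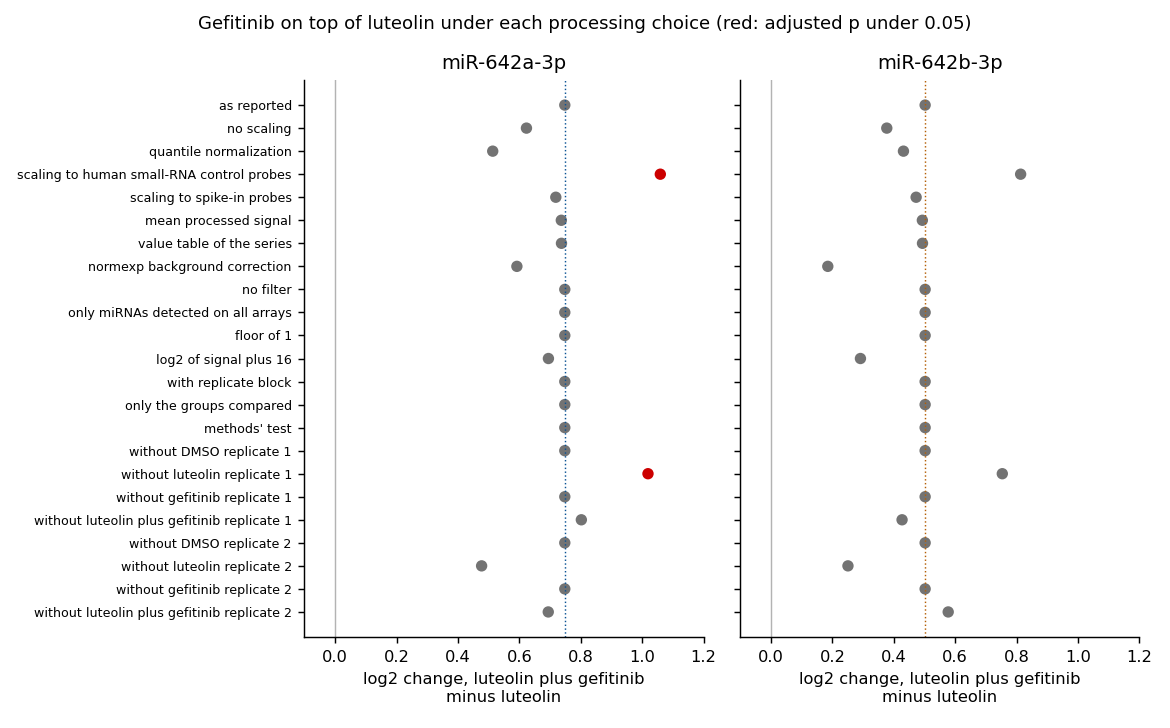
Log2 difference between luteolin plus gefitinib and luteolin (x axis) for miR-642a-3p (left) and miR-642b-3p (right) under each processing choice (y axis), with the dotted line at the reported value and red points where the limma adjusted p was under 0.05. All points lie above 0, from 0.48 to 1.06 for miR-642a-3p and from 0.18 to 0.81 for miR-642b-3p, and the red points are the scaling to human small-RNA control probes and the fit without replicate 1 of luteolin, both for miR-642a-3p.

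Because the total signal of a miRNA is a sum over probes, each probe was also examined on its own. miR-642a-3p had 3 probes of 10 spots each and miR-642b-3p had 2 probes of 15 spots each. The probes of an arm moved together. For gefitinib against DMSO, the probes of miR-642a-3p differed 3.01-fold to 3.09-fold and those of miR-642b-3p 2.04-fold to 2.13-fold. For luteolin plus gefitinib against luteolin, the probes of miR-642a-3p differed 1.64-fold to 1.73-fold and those of miR-642b-3p 1.41-fold to 1.42-fold. Within a probe and array, the spots varied with a coefficient of variation of 1.48% to 10.1% for miR-642a-3p and of 3.54% to 15.8% for miR-642b-3p. Probes of an arm share the RNA of their array and are not replicates of a treatment. In both comparisons every probe of miR-642a-3p differed by a larger fold than every probe of miR-642b-3p.

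**Figure D3:**
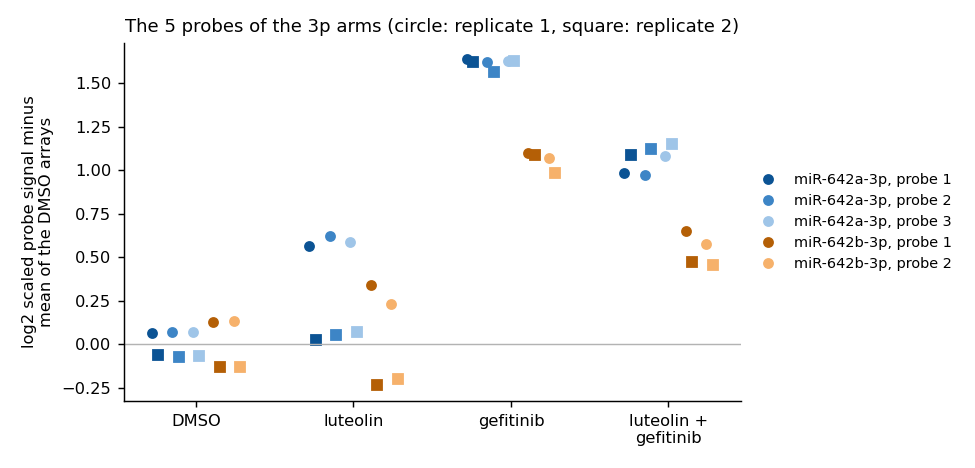
Log2 scaled signal of each of the 5 probes of the 3p arms, minus the probe's mean over the DMSO arrays (y axis), by treatment (x axis), with circles for replicate 1, squares for replicate 2, blue for the 3 probes of miR-642a-3p and orange for the 2 probes of miR-642b-3p. In gefitinib-treated cells all blue points lie above all orange points, and replicate 1 of luteolin lies above replicate 2 on every probe.

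The ratio of the arms within an array needs no scaling between arrays, and a change in it means that their signals did not change equally. Whether the arms themselves changed unequally was not tested, because each probe set may also bind the other arm. The ratio says nothing about which arm is more abundant, since signals of different probes are not compared. The log2 of the signal of miR-642a-3p over that of miR-642b-3p was 2.78 and 2.91 in DMSO-treated cells, 3.15 and 3.11 in luteolin-treated cells, 3.39 and 3.41 in gefitinib-treated cells, and 3.24 and 3.50 in cells given both drugs. All 6 arrays of drug-treated cells lay above both DMSO arrays, and the range over the 8 arrays was 0.72 with an SD of 0.25. The group means were 2.84, 3.13, 3.40 and 3.37, so the ratio was higher by 0.56 in gefitinib-treated cells than in DMSO-treated cells. This ratio holds the contrast that the locus was picked for, so no test is given for it.

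With each of the 6 pairs of single probes in place of the totals, the ratio was higher in gefitinib-treated cells by 0.50 to 0.60 on the log2 scale. Between luteolin plus gefitinib and luteolin it was higher by 0.25. The probe sequences are not in the files used here. With a single base of difference between the 3p arms, each probe set may also bind the other arm, and the part of this in the signal of miR-642b-3p and in the ratio was not tested.

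**Figure D4:**
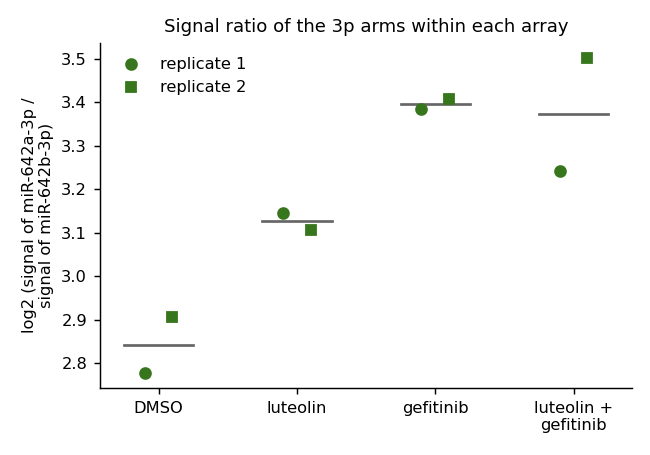
Log2 ratio of the total signal of miR-642a-3p to that of miR-642b-3p within each array (y axis, which does not start at 0) by treatment (x axis), with circles for replicate 1, squares for replicate 2 and lines for the group means. The DMSO arrays lie lowest, at 2.78 and 2.91, and the 6 arrays of drug-treated cells lie between 3.11 and 3.50.

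The miRNAs that share sequence with the 3p arms were examined next. RefSeq held a sequence for 1578 of the 1887 miRNAs on the array, the 4 members included, and 0 other miRNAs had the seed of a miR-642 arm. A run of at least 8 bases of miR-642a-3p or miR-642b-3p occurred in 10 other miRNAs, of which 4 passed the filter for the test. They are shown with the shared run in capitals, because a shared run could let a miRNA bind the same probes.
miR-30c-1-3p: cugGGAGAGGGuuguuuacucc
miR-3945: agggcauaGGAGAGGGuugauau
miR-652-5p: caacccuaGGAGAGGGugccauuca
miR-4261: aggaaacAGGGACCCa

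The run of miR-30c-1-3p, miR-3945 and miR-652-5p is found at bases 11 to 18 of both 3p arms, and that of miR-4261 is the 3′ end of miR-642b-3p, bases 15 to 22, which includes the base that differs. In gefitinib-treated against DMSO-treated cells limma called 1 of these 4 miRNAs, miR-3945, higher and 0 lower, beside 7.5% and 4.58% of all miRNAs tested. miR-3945 had a scaled signal of 1.23 and 1.17 in gefitinib-treated cells and was detected on none of the other 6 arrays. It passed the filter only through the gefitinib arrays and had no spread in the other groups, so its call is not read as a result and neither a fold nor a p is given. miR-4261, the miRNA that shares its run with miR-642b-3p, had signals of 12.9 and 12.4 in DMSO-treated cells, 12.6 and 14.0 in luteolin-treated cells, 8.64 and 9.80 in gefitinib-treated cells, and 9.53 and 8.52 in cells given both drugs. Its log2 difference between gefitinib and DMSO was -0.46 (limma adjusted p = 0.114).

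miR-652-5p lay between 2.99 and 5.30 on all arrays, with a log2 difference between gefitinib and DMSO of -0.12 (limma adjusted p = 0.847). miR-30c-1-3p had a signal of at most 1.11 and a difference of -0.32 (limma adjusted p = 0.623). It passed the filter only through the gefitinib arrays, at 0.714 and 0.604. Because replicate 2 of DMSO sat at the floor, where it was not detected, this difference is not read as a result. The median log2 difference of the 4 was -0.22, beside -0.10 over all miRNAs tested, and it counts miR-3945 and miR-30c-1-3p with floored arrays. For luteolin plus gefitinib against luteolin 0 of the 4 were called in either direction, and their median was -0.18, beside -0.05 over all miRNAs tested. With luteolin alone or both drugs against DMSO, 0 of the 4 were called.

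The locus itself has few miRNA neighbours. The RefSeq table placed 3 other miRNA genes within 500 kb of the hairpins, and 4 of their arms were on the array, those of miR-330 and miR-769. Of these, 3 passed the filter, and miR-330-5p was detected on no array. miR-769-3p was detected on neither DMSO array and neither luteolin array, at 2.36 and 2.14 in gefitinib-treated cells, and at 1.08 and 0.836 in cells given both drugs. Its signal in gefitinib-treated cells was at least 3.13-fold above DMSO-treated cells. Limma called it higher there, but it too passed the filter only through the groups where it was detected and had no spread in the others, so no p is given.

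The other arm of the same hairpin, miR-769-5p, had the opposite order. Its signal was 3.90 and 2.32 in DMSO-treated cells, 3.50 and 2.14 in luteolin-treated cells, 1.41 and 1.63 in gefitinib-treated cells, and 2.04 and 1.71 in cells given both drugs. Its log2 difference between gefitinib and DMSO was -0.99 (limma adjusted p = 0.148), which did not pass the test. miR-330-3p had 2.06 and 2.30 in DMSO-treated cells against 3.28 and 2.26 in gefitinib-treated cells, a log2 difference of 0.32 (limma adjusted p = 0.647), and these groups overlapped. Among the 3 neighbours, miR-769-3p was thus the only 1 called with gefitinib alone, beside 7.5% of all miRNAs tested called higher. Like that of miR-3945, its call is not read as a result. The call was lost with quantile normalization, which called 1 neighbour lower, and with the normexp background correction described below. The 3 had a median log2 difference of 0.32 beside -0.10 over all miRNAs tested, with miR-769-3p counted at the floor in DMSO-treated cells. For luteolin plus gefitinib against luteolin 0 of 3 were called, and their median was -0.44 beside -0.05. For luteolin or both drugs against DMSO, 0 of 3 were called.

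The arrangement of MIR642A and MIR642B is shared by other miRNA genes. RefSeq held 35 pairs of miRNA genes that overlap on opposite strands, and 68 miRNAs from such genes other than MIR642A and MIR642B were on the array. Of these, 13 were detected on at least 1 array and 11 passed the filter. The brightest of the 11 were miR-24-3p, miR-103a-3p and miR-374b-5p, with mean scaled signals of 925, 488 and 44.5. These 3 differed between gefitinib-treated and DMSO-treated cells by -0.21, -0.03 and 0.02 on the log2 scale, with limma adjusted p of 0.546, 0.938 and 0.982. Some of them, such as miR-24-3p and miR-103a-3p, are also made from a second gene, which the array cannot tell apart.

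With gefitinib alone limma called 1 of the 11 higher and 1 lower, where 7.5% and 4.58% of all miRNAs tested were called, so that a single call each way is no result about the list. The higher 1, miR-3158-5p, had 1.63 and 1.53 in gefitinib-treated cells, at least 2.20-fold above DMSO-treated cells, and was detected on none of the other 6 arrays. Like miR-3945 it passed the filter only through the gefitinib arrays, so its call is not read as a result. miR-338-5p fell from 2.37 and 2.30 in DMSO-treated cells to 1.16 on both gefitinib arrays, a log2 change of -1.01 (limma adjusted p = 0.0165). It was also lower in cells given both drugs than in DMSO-treated cells, at 1.28 on both arrays (log2 -0.87, limma adjusted p = 0.0236), where 1 of the 11 was called lower and 0 higher, beside 6.04% each way over all miRNAs tested. Over 22 alternatives its log2 change ran from -1.48 to -0.05 with gefitinib alone and from -1.01 to -0.03 with both drugs. These calls of miR-338-5p held in 10 of 22 and 8 of 22 alternatives (limma adjusted p 0.00727 to 0.271 and 0.0109 to 0.711). The first was lost without any 1 of the DMSO or gefitinib arrays, with a limma adjusted p of up to 0.110, although the log2 change stayed between -1.03 and -0.98. The second was lost without any 1 of the DMSO, gefitinib or combination arrays, with a limma adjusted p of up to 0.0952 and a log2 change of -0.89 to -0.84. The median of the 11 was -0.03 for gefitinib against DMSO, beside -0.10 over all miRNAs tested. For luteolin plus gefitinib against luteolin 0 of the 11 were called and the median was -0.14, beside -0.05, and for luteolin against DMSO 0 were called.

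The miRNAs whose levels over the arrays were most like those of miR-642a-3p were found by Pearson's r of the log2 scaled signal over the 8 arrays, among the 365 miRNAs detected on all of them. They were miR-4651 (r = 0.986), miR-4746-3p (r = 0.985), miR-4745-5p (r = 0.977), miR-4534 (r = 0.974) and miR-3195 (r = 0.968). miR-642b-3p came next at rank 6 with r = 0.968. The arrays are of 4 treatments and share scaling, so r is given as a description, and 20 miRNAs had an r over 0.9 and 11 over 0.95. A high r with miR-642a-3p was therefore found well beyond its own locus.

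The levels of these 5 miRNAs had the order of miR-642a-3p. miR-4746-3p had mean scaled signals of 14.2 ± 0.755 in DMSO-treated, 16.3 ± 1.51 in luteolin-treated and 40.4 ± 0.536 in gefitinib-treated cells, and 30.3 ± 3.28 with both drugs (SD, n = 2). miR-3195, the brightest of them, had 83.4 ± 5.67, 84.7 ± 5.52, 186 ± 1.99 and 124 ± 9.25 in the same order. Since they were chosen for this pattern over the same 8 arrays, no test is given for them. RefSeq held the sequence of 4 of them, shown with the seed in capitals because none resembled miR-642a-3p.
miR-4651: cGGGGUGGgugaggucgggc
miR-4746-3p: aGCGGUGCuccugcgggccga
miR-4745-5p: uGAGUGGGgcucccgggacggcg
miR-4534: gGAUGGAGgaggggucu

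Their longest runs shared with miR-642a-3p were 4 bases in miR-4651, 3 in miR-4746-3p, 4 in miR-4745-5p and 5 in miR-4534, against 19 in miR-642b-3p. Guanine and cytosine made up 80% of miR-4651, 76.2% of miR-4746-3p, 78.3% of miR-4745-5p and 64.7% of miR-4534. The miR-642 3p arms had a lower content, 50% for miR-642a-3p and 54.5% for miR-642b-3p, beside a median of 52.4% over the 303 miRNAs detected on all arrays whose sequence RefSeq held.

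**Figure D5:**
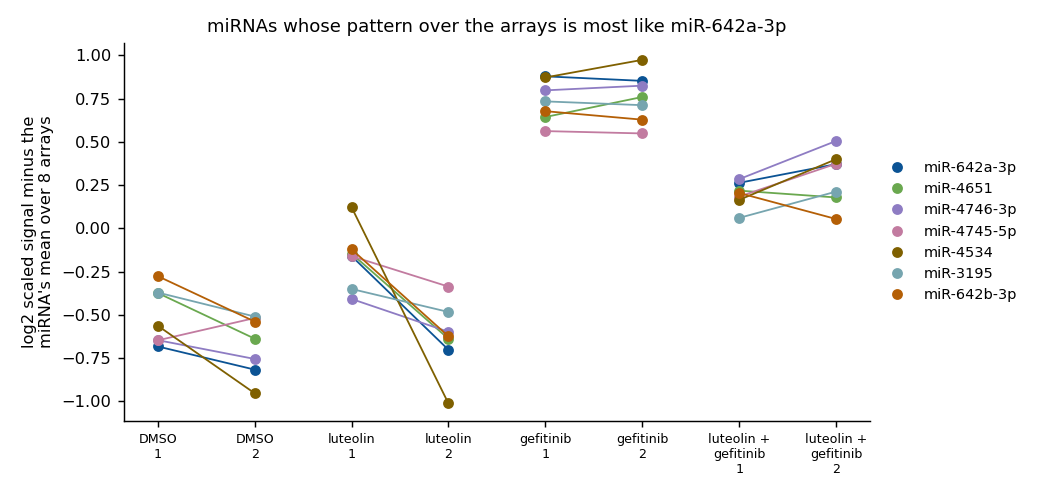
Log2 scaled signal minus the miRNA's mean over the 8 arrays (y axis) for miR-642a-3p, the 5 miRNAs with the highest r with it, and miR-642b-3p, on each array (x axis, treatment and replicate number), with lines joining the 2 arrays of a treatment. All 7 miRNAs lie highest on the gefitinib arrays, and miR-4534 has the largest gap between the luteolin arrays.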

How the data were processed

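The authors labelled total RNA with Cy3, hybridised it to 1-colour Agilent miRNA arrays and extracted each array on its own. The array headers name Feature Extraction 10.7.3.1. The deposited values are signal intensity with background subtracted and no scaling between arrays. Gene names are those of the array design, and 0 columns were left unmapped. In the deposited series table, 100% of miRNA spots had the scanner files' processed intensity within 0.5%.

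From these, total signals were divided by the array's 75th percentile over 365 miRNAs, raised to a floor of 0.609 (an array's lowest detected signal, median of 8) and taken to log2. All 4 groups were fitted together with limma 3.58.1 in R 4.3.3, which left 4 residual degrees of freedom, beside 1.66 from the prior. p-values are two-sided and adjusted by Benjamini-Hochberg over 480 miRNAs, and a miRNA was called at an adjusted p under 0.05. Where both arrays of a group sit at the floor, they show no spread and the standard error is too small. The fold is then a bound, which sets the brighter group against the lowest detected signal of each dim array. An exact permutation test of 2 arrays against 2 cannot give a p under 0.333, so none was used. The few arrays limit the precision. Tables and sequences were handled in Python 3.11.15 with pandas 2.3.3, and the fit was tested on simulated data.

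The members and the related lists were chosen with earlier results of these data known. The miRNAs named were the 4 members, the 5 others with the highest r with miR-642a-3p, and of each related list every tested miRNA where there were 6 or fewer, otherwise the 3 brightest and any called. Coordinates are those of RefSeq on GRCh38. The array headers name an older build, and none were converted. The alternatives changed the scaling, spot summary, background correction (normexp, offset 50), filter, floor (1, or log2 of signal plus 16), test (the replicate number as a block, only the groups compared, the test named in the methods) and the arrays included. The normexp alternative changed other steps too. It started from median spot signals, used quantile normalization between arrays and averaged the log2 spots of each miRNA.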

Additional observations from a re-analysis of the deposited data

How the results depend on the processing

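The differences of the 3p arms between luteolin plus gefitinib and luteolin and between gefitinib and DMSO, and the ratio of the arms between gefitinib and DMSO, kept their direction under all alternatives run. The other comparisons of the 3p arms are given under the reported processing only. For luteolin plus gefitinib against luteolin, miR-642a-3p was between 0.48 and 1.06 (log2) and stayed short of the threshold in 20 of 22 alternatives. It passed with scaling to human small-RNA control probes (1.06) and without replicate 1 of luteolin (1.02). miR-642b-3p was between 0.18 and 0.81 and passed in none. With 1 array left out the ranges were 0.48 to 1.02 and 0.25 to 0.75. The number of miRNAs called in this comparison was 9, and it was 2 without scaling, 19 with quantile normalization, 25 with human control probes, 3 with spike-in probes, 41 with normexp, 3 without a filter, 4 among miRNAs detected on all arrays, 15 with log2 of signal plus 16, 1 with only the groups compared, and 1 with the test named in the methods, which gave 29 before adjustment, 12 of them with more than a 2-fold difference. With 1 array left out it was 3 to 18. It was 3 without either gefitinib array, 4 without replicate 2 of luteolin plus gefitinib, 15 to 18 without replicate 1 of that group or without either luteolin array. With the replicate number as a block it was 5, and the limma adjusted p of the arms was 0.159 and 0.190. The numbers were not taken to pair the samples, because no label ties a number to a shared culture or day and each group has only 2 arrays. Deviations of same-numbered arrays correlated at 0.461 between luteolin and luteolin plus gefitinib, 0.908 between DMSO and luteolin and 0.409 between DMSO and luteolin plus gefitinib, but at -0.135 to 0.065 between gefitinib and the other groups, and the replicate number is also the slide row on 8 of 8 arrays. For gefitinib against DMSO, miR-642a-3p (1.62) was 1.98 without scaling, 1.97 with human control probes, 2.11 with spike-in probes, 1.32 with normexp and 1.51 with log2 of signal plus 16. In the same order miR-642b-3p (1.06) was 1.43, 1.42, 1.55, 0.48 and 0.67. With 1 array left out the ranges were 1.55 to 1.68 and 0.93 to 1.19. The median of all miRNAs tested moved with the scaling, from -0.10 to 0.26 without scaling, 0.25 with human control probes and 0.38 with spike-in probes. Relative to this median miR-642a-3p was 1.69 to 1.73 higher under every scaling and 1.34 with normexp, and miR-642b-3p 1.17 to 1.18 and 0.50. The ratio of the arms, gefitinib minus DMSO, was 0.84 with normexp. The related lists gave 168 counts under alternatives, of which 145 were within 1.5 times the reported count and 23 were not, 3 of them above a reported 0. For miR-338-5p, the spot summaries, floors, tests and left-out arrays were added after seeing the data. The causes of these shifts were not tested. Scaling to the 75th percentile over all miRNAs was not run, because on some arrays that percentile falls on undetected miRNAs.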
